A study of Mus musculus with 12 samples.

Results

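The genes described here encode 10 enzymes and chaperones that modify collagen before it is deposited in the wall: the prolyl 4-hydroxylase subunits P4ha1, P4ha2 and P4ha3, the lysyl hydroxylases Plod1, Plod2 and Plod3, the chaperones Serpinh1 and Fkbp10, the procollagen C-proteinase Bmp1 and its enhancer Pcolce. They were chosen by their gene name on the array, and each of the 10 was measured, with 16 of the 55681 different probes on the array and as 10 of the 22758 genes tested. The aortas came from male mice, and their RNA was put on 12 one-colour microarrays, with 3 for each of WT before challenge, WT at day 3 of BAPN + AngII challenge, smSocs3-KO before challenge and smSocs3-KO at day 3. All mice carried the floxed Socs3 allele, on a background labelled 129S5/SvEvBrd, C57BL6 and SJL, and the smSocs3-KO mice also carried Cre recombinase under the SM22 promoter, which is active in smooth muscle cells, so that cells without SM22 promoter activity keep Socs3. WT mice were littermates without Cre. The challenge lasted 3 days, with BAPN at a dose of 150 mg/kg/day and AngII at a dose of 1000 ng/kg/min from osmotic minipumps, and mice before challenge had received neither agent. The labels gave no age and did not say whether each array came from a separate mouse, so p-values measure the spread between these arrays.

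Collagen chains are modified in the endoplasmic reticulum before they leave the cell. Prolyl 4-hydroxylation makes the triple helix stable at body temperature, hydroxylation of lysines prepares the sites of the crosslinks, and chaperones keep the chains from folding or aggregating too early. After secretion the C-terminal propeptide is cut off and the fibrils are crosslinked by lysyl oxidases, the enzymes that BAPN inhibits. In the aorta, smooth muscle cells and adventitial fibroblasts are the main makers of fibrillar collagen.

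Between 55.4% and 61.2% of the spots other than controls were well above background on each array, and no spot was saturated. Arrays of the same group correlated across genes, which are no independent replicates, at 0.964 to 0.992. Replicate 4 of WT at day 3 stood apart from its group, with 0.964 and 0.970 against its own replicates and 0.985 against replicate 3 of smSocs3-KO before challenge. Replicate 1 of smSocs3-KO before challenge correlated with its own replicates at 0.964 and 0.965 and with the WT arrays before challenge at up to 0.985. The counts of calls below are given with and without them. Socs3, the deleted gene, was not lower in the arrays labelled smSocs3-KO. Its log2 level there lay between 0.24 and 1.46 before challenge, against 0.30 to 0.75 in WT, and between 2.28 and 4.13 at day 3, against 0.64 to 2.30 in WT. Whether its probe lies in the deleted stretch is not stated in the files, and the groups are therefore named by their label. All 6 WT arrays and replicate 1 of smSocs3-KO before challenge shared slide 1, while 5 of the smSocs3-KO arrays shared slide 2, so that at day 3 the label and the slide cannot be told apart. With the slide as a block, a genotype difference rests on that replicate 1 alone, whereas the smSocs3-KO challenge response compares arrays within slide 2 and is the same as without that replicate. In bulk tissue, fewer cells of a type and less RNA per cell cannot be told apart either.

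Promoters are shown for 4 of the members because their genes moved in different ways below: Plod1 and Pcolce were higher after challenge, while P4ha1 and Serpinh1 had the lowest responses under the smSocs3-KO label. RefSeq's promoter table (GRCm38.p6) matched 7 of the 10 members, all but Plod2, Bmp1 and Fkbp10. Each line holds the bases that lie before the gene as RefSeq annotates it, written 5′ to 3′ on the strand of the gene. The positions are chr10:59323046-59323196 on the plus strand for P4ha1, chr4:147936777-147937026 on the minus strand for Plod1, chr7:99353240-99353489 on the minus strand for Serpinh1 and chr5:137611523-137611654 on the minus strand for Pcolce. Capitals mark a core of the hypoxia response element, ACGTG or GCGTG, on either strand.
P4ha1: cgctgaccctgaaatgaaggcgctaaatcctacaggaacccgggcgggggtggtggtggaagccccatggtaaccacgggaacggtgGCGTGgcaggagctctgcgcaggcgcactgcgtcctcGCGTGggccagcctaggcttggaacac
Plod1: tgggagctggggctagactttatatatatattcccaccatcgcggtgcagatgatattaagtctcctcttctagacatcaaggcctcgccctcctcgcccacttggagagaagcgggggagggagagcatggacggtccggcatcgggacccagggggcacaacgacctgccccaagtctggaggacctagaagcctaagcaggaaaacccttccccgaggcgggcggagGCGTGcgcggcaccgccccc
Serpinh1: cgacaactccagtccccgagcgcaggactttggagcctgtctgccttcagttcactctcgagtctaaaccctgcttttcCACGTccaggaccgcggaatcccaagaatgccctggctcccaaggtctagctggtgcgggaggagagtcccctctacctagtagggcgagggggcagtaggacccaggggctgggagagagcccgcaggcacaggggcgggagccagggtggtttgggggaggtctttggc
Pcolce: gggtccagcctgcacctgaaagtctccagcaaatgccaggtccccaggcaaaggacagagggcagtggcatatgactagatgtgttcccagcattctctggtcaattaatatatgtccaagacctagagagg

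In the 250 bases before the annotated start, 6 of the 7 promoters held that core, against 38.6% of all 32851 promoters over the same length. There were 3 matches in P4ha1, of which 2 stand in capitals above, 3 in P4ha2, 4 in Plod3 and 1 each in Plod1, Serpinh1 and Pcolce. P4ha3 had 0 matches. The match of Pcolce lay 40 bases before the start, inside the span of the gene, and is not printed. The promoter of Plod3 overlapped 1 other annotated gene, and 0 of its bases met the rule for printing. The heat shock element core GAANNTTC, searched on both strands, was in 0 of the 7 and in 6.69% of all promoters. The CCAAT box, likewise on both strands, was in 1 of the 7, that of Plod3, and in 33.8% of all. These matches describe the letters of the window and no binding of a factor.

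Averaged over both genotype labels, 5 of the 10 genes were higher at day 3 than before challenge at an adjusted p under 0.05 (limma), where 13.6% of all genes were called higher. These were Plod3, Fkbp10, Plod1, Bmp1 and Pcolce, one or more from each step other than prolyl hydroxylation. The median log2 fold change of the 10 genes was 0.59, against -0.05 over all genes tested, and P4ha1 was the 1 gene with a negative value. In WT mice 3 of the 10 genes were called higher, Plod1, Plod3 and Pcolce, where the share over all genes was 3.59%, and all 10 values were positive with a median of 0.70 against -0.02 over all genes. Under the smSocs3-KO label 0 of the 10 were called in either direction by limma, where the share over all genes was 2.45%, and 5 had an unadjusted p under 0.05, as did 23.8% of all genes. Of these 10 values 8 were positive, and their median was 0.39 against -0.06 over all genes. Without replicate 1 of the group before challenge, 0 were called as well, where 39 of all 22758 genes were called higher and 13 lower. Leaving out replicate 4 of WT at day 3 leaves the smSocs3-KO values as they are and alters the spread shared by all groups. Then 3 were called, P4ha1 lower and Plod3 and Bmp1 higher, where 1265 of all genes were called higher and 654 lower.

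**Figure D1:**
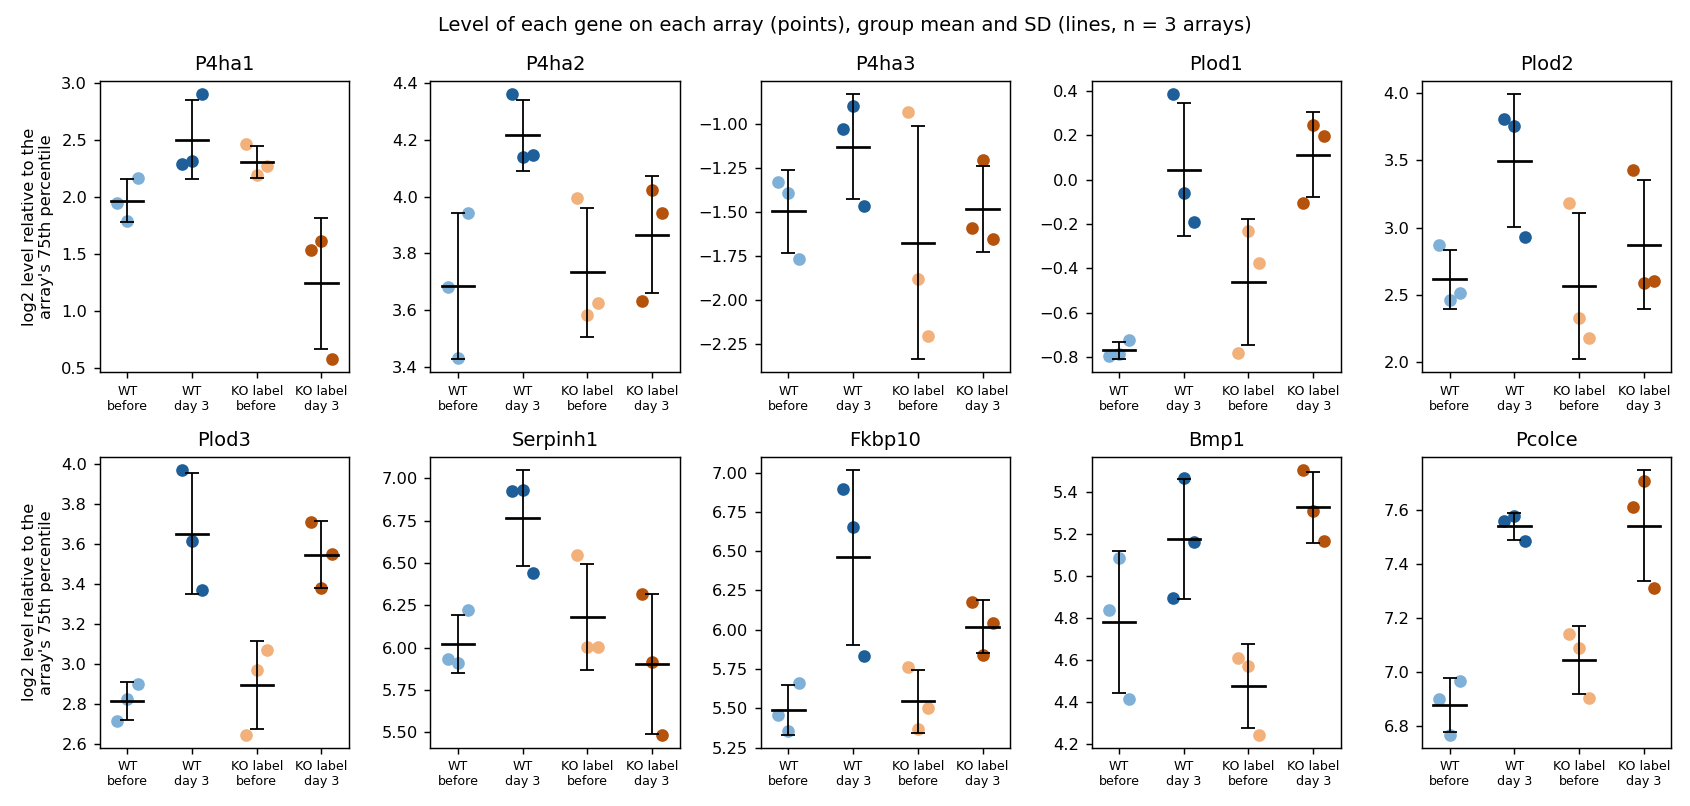
Level of the 10 genes on each of the 12 arrays, as log2 relative to the 75th percentile of the array (y axis, scaled for each gene), by group (x axis, with KO label for the arrays labelled smSocs3-KO). Points are arrays, and lines are the group mean and SD (n = 3). Plod3 and Pcolce stand higher at day 3 under both labels, whereas P4ha1 at day 3 lies between 2.29 and 2.90 in WT and between 0.58 and 1.61 under the smSocs3-KO label.

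The groups before and after challenge did not overlap for 8 of the 10 genes in WT, all of them higher at day 3, where 20.7% of all genes had their 3 arrays higher without overlap. Under the smSocs3-KO label, 5 genes were higher without overlap, where the share over all genes was 14.1%, and 1 gene, P4ha1, was lower without overlap, where the share was 14%. The WT calls were close to the threshold. Their number fell from 3 to 0 without any single one of WT before challenge replicates 1, 2 and 3, WT day 3 replicates 1 and 3, smSocs3-KO before challenge replicate 4 and smSocs3-KO day 3 replicate 3, was 1 without smSocs3-KO day 3 replicate 2 and 4 without smSocs3-KO before challenge replicate 1, and rose to 6 without WT day 3 replicate 4. That last array was the lowest of its group for 7 of the 10 genes. Calls over all 22758 genes moved as well. In WT, 816 were called higher with all arrays and 2270 without that last array. They were 1613 without smSocs3-KO before challenge replicate 1, 518 without smSocs3-KO day 3 replicate 2 and 422 without smSocs3-KO day 3 replicate 3. Without any other array named for a count of 0, at most 2 were called higher. The count of the averaged response was 5 or 6 whichever array was left out. Over all genes, 1661 to 3591 were then called higher in that response.

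Prolyl 4-hydroxylases are tetramers of an alpha subunit, which carries the active site, and protein disulfide isomerase. P4ha1, the most widely used alpha subunit, had log2 levels of 1.95, 1.79 and 2.17 in WT before challenge and of 2.29, 2.32 and 2.90 at day 3. Arrays labelled smSocs3-KO were at 2.46, 2.19 and 2.27 before challenge and 1.54, 1.61 and 0.58 at day 3. WT arrays were thus higher at day 3 and arrays labelled smSocs3-KO were lower, in both cases without overlap. The challenge response of P4ha1 was a log2 fold change of 0.53 ± 0.28 (SE) in WT, with an adjusted p of 0.243 (limma), and -1.06 ± 0.28 under the smSocs3-KO label, with an adjusted p of 0.0671 (limma), so neither passed the threshold. Without replicate 4 of WT day 3 the WT value was 0.33. With the slide as a block, which compares the smSocs3-KO arrays within slide 2, the latter was -0.99. Without replicate 5 of smSocs3-KO day 3, the lowest array, it was -0.73.

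The difference between both responses, the genotype by challenge interaction, was -1.60 ± 0.39 (SE) for P4ha1, with an unadjusted p of 0.0019 and an adjusted p of 0.704 (limma). Across all genes 0% were called for this interaction, and 0 of the 10 genes here were, while 2 of them, P4ha1 and Serpinh1, had an unadjusted p under 0.05, as did 5.33% of all genes. The 10 interaction values ran from -1.60 to 0.46, and 9 of the 10 were negative. Their median was -0.32, against -0.06 over all genes, of which 44.0% had a positive value. A second probe of P4ha1, which lies upstream of the brighter probe on the same RefSeq transcript, had levels of -0.69, -0.998 and -0.94 in WT before challenge and -0.89, -0.44 and -0.57 at day 3. In the arrays labelled smSocs3-KO it read -0.12, -1.28 and -0.98 before challenge and -1.77, -1.69 and -2.33 at day 3. Both probes thus gave a lower level in each smSocs3-KO array at day 3 than in any before challenge, and the log2 fold change of the second probe was 0.24 in WT and -1.14 under the smSocs3-KO label. The probes lie at chr10:58835625-58835684 and chr10:58835012-58835071 (mm9).

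P4ha2, another alpha subunit, had log2 levels of 3.68, 3.43 and 3.94 in WT before challenge and 4.36, 4.14 and 4.15 at day 3, with no overlap. The smSocs3-KO levels were 3.996, 3.58 and 3.62 before challenge and 3.63, 4.03 and 3.94 at day 3, where the groups overlapped. Its log2 fold change was 0.53 ± 0.19 (SE, adjusted p = 0.111, limma) in WT and 0.13 ± 0.19 (adjusted p = 0.679) under the smSocs3-KO label. P4ha3, another alpha subunit, lay below the 75th percentile on every array, between -2.20 and -0.90, and its groups overlapped under both labels. Its log2 fold change was 0.37 ± 0.30 (SE, adjusted p = 0.461, limma) in WT and 0.19 ± 0.30 (adjusted p = 0.716) under the smSocs3-KO label. A second, dimmer probe of P4ha3 disagreed in size, with 0.82 ± 0.69 (SE) in WT and 2.02 ± 0.69 under the smSocs3-KO label, and neither was called among all probes. With the mean over both probes the response under the smSocs3-KO label was 1.105, and with the brighter probe but without replicate 1 before challenge it was 0.56. The dimmer probe was not well above background on 1 of the 3 WT arrays at day 3.

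**Figure D2:**
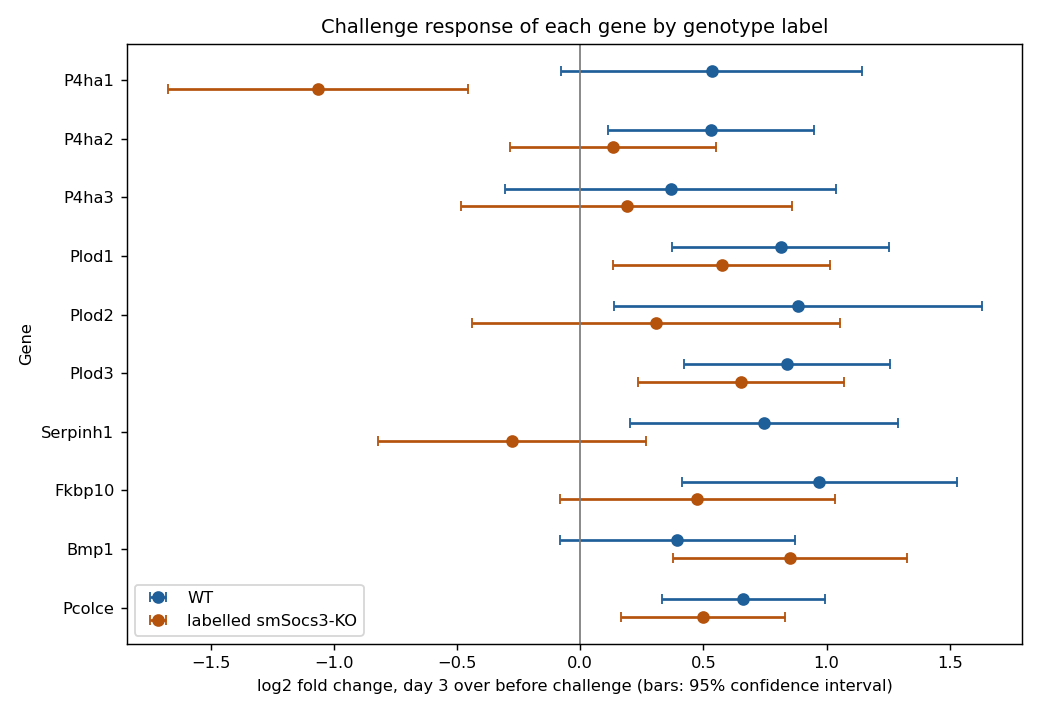
Log2 fold change of day 3 over before challenge (x axis) for each of the 10 genes (y axis), in WT (blue) and under the smSocs3-KO label (brown). Points are limma estimates from 3 arrays a group, and bars are 95% confidence intervals. The intervals of P4ha1 run from -0.08 to 1.14 in WT and from -1.67 to -0.45 under the smSocs3-KO label, while those of Plod1, Plod3 and Pcolce lie above 0 under both labels.

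Lysyl hydroxylases prepare collagen for crosslinking and for the attachment of sugars, and Plod3 also transfers the sugars. Plod3 had log2 levels of 2.71, 2.82 and 2.90 in WT before challenge and 3.97, 3.61 and 3.37 at day 3. Levels under the smSocs3-KO label were 2.65, 2.97 and 3.07 before challenge and 3.71, 3.38 and 3.55 at day 3. All 6 arrays at day 3 were higher than all 6 before challenge. The log2 fold change was 0.84 ± 0.19 (SE, 1.79-fold, adjusted p = 0.0390, limma) in WT and 0.65 ± 0.19 (adjusted p = 0.0855) under the smSocs3-KO label. Averaged over both it was 0.75 ± 0.13 (SE, adjusted p = 0.0073, limma), the largest of the 10 averaged responses.

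Plod1, mutated in the kyphoscoliotic form of Ehlers-Danlos syndrome, was at -0.80, -0.79 and -0.72 in WT before challenge and at 0.38, -0.06 and -0.19 at day 3. The arrays labelled smSocs3-KO were at -0.78, -0.23 and -0.37 before challenge and -0.11, 0.25 and 0.20 at day 3. The groups did not overlap under either label, and the smSocs3-KO array on slide 1 had the level of the WT arrays before challenge. Plod1 thus had a log2 fold change of 0.81 ± 0.20 (SE, adjusted p = 0.0468, limma) in WT, 0.57 ± 0.20 (adjusted p = 0.128) under the smSocs3-KO label and 0.69 ± 0.14 (adjusted p = 0.0103) averaged over both. A second probe, nearer to the start of the transcript, moved less, with a log2 fold change of 0.34 in WT and 0.32 under the smSocs3-KO label, and was not called among all probes. Another probe, designed to another transcript of Plod1, was not well above background on any of the 12 arrays.

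Plod2, which hydroxylates the lysines of the telopeptides, was at 2.87, 2.47 and 2.51 in WT before challenge and 3.81, 3.76 and 2.93 at day 3, without overlap. The smSocs3-KO arrays gave 3.18, 2.33 and 2.18 before challenge and 3.43, 2.59 and 2.61 at day 3, where the groups overlapped through the array on slide 1. Its log2 fold change was 0.88 ± 0.34 (SE, adjusted p = 0.131, limma) in WT and 0.31 ± 0.34 (adjusted p = 0.589) under the smSocs3-KO label. The latter was 0.62 within slide 2, 0.03 without replicate 2 of smSocs3-KO day 3 and 0.12 without replicate 4 of smSocs3-KO before challenge.

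Serpinh1 encodes Hsp47, a chaperone that binds the triple helix of procollagen. Its log2 level was 5.94, 5.91 and 6.22 in WT before challenge and 6.93, 6.93 and 6.44 at day 3. The smSocs3-KO levels were 6.54, 6.00 and 6.00 before challenge and 6.31, 5.91 and 5.49 at day 3. WT arrays were higher at day 3 without overlap, and the smSocs3-KO groups overlapped. Its response was a log2 fold change of 0.74 ± 0.25 (SE, adjusted p = 0.0924, limma) in WT and -0.28 ± 0.25 (adjusted p = 0.501) under the smSocs3-KO label, and their difference of -1.02 ± 0.35 had an unadjusted p of 0.0138 and an adjusted p of 0.897 (limma). Averaged over both labels it was 0.23 ± 0.17 (SE, adjusted p = 0.338, limma). The smSocs3-KO value was -0.10 without replicate 1 before challenge, which is the value within slide 2, -0.07 without replicate 5 of day 3 and -0.48 without replicate 2 of day 3.

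Fkbp10 encodes FKBP65, a peptidyl-prolyl isomerase that assists procollagen folding and the hydroxylation of telopeptide lysines. It was at 5.45, 5.35 and 5.66 in WT before challenge and 6.90, 6.65 and 5.83 at day 3, and at 5.77, 5.37 and 5.4996 before challenge and 6.18, 5.84 and 6.04 at day 3 under the smSocs3-KO label. No group at day 3 overlapped with its group before challenge, and replicate 4 of WT at day 3 stood low. The log2 fold change was 0.97 ± 0.25 (SE, 1.96-fold, adjusted p = 0.0528, limma) in WT, which was the largest WT value of the 10 genes, and 0.48 ± 0.25 (adjusted p = 0.273) under the smSocs3-KO label. The averaged response of 0.72 ± 0.18 passed the threshold (adjusted p = 0.0186, limma).

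Bmp1, the protease that removes the C-terminal propeptide, was at 4.84, 5.08 and 4.42 in WT before challenge and 4.89, 5.47 and 5.16 at day 3, with overlap. Arrays labelled smSocs3-KO gave 4.61, 4.57 and 4.25 before challenge and 5.503, 5.31 and 5.17 at day 3, all higher. The log2 fold change was 0.39 ± 0.22 (SE, adjusted p = 0.265, limma) in WT and 0.85 ± 0.22 (adjusted p = 0.0629) under the smSocs3-KO label, and 0.62 ± 0.15 (adjusted p = 0.0182) averaged over both. The WT value was 0.21 without replicate 3 before challenge, 0.25 without replicate 3 of day 3 and 0.14 with quantile normalization. Bmp1 had the 1 positive interaction value of the 10 genes, 0.46 ± 0.30 (SE, adjusted p = 0.970, limma).

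The 3 probes of Bmp1 differed in size. The probe at chr14:70886415-70886474 (mm9, minus strand), which the array pairs with a noncoding RefSeq transcript of the gene, was at 1.14, 1.31 and 0.96 in WT before challenge and 2.41, 2.35 and 1.66 at day 3. The smSocs3-KO arrays read 1.09, 1.02 and 0.74 before challenge and 3.00, 2.16 and 3.02 at day 3, so that its groups were separate under both labels. Its log2 fold change was 1.003 ± 0.27 (SE, adjusted p = 0.0614 over all 32280 probes, limma) in WT and 1.78 ± 0.27 (adjusted p = 0.0184) under the smSocs3-KO label, where 1.41% of all probes were called higher. Averaged over both labels it was 1.39 ± 0.19 (SE, adjusted p = 0.0044 over all probes, limma), where 11.8% of all probes were called higher. The probe at chr14:70890355-70890414, paired with the coding transcript, changed by 0.01 ± 0.14 (SE) in WT and 0.35 ± 0.14 (adjusted p = 0.174, limma) under the smSocs3-KO label, and its WT levels at day 3 were 0.59, 0.61 and 0.59 against 0.53, 0.70 and 0.52 before challenge. The averaged response of this probe was 0.18 ± 0.10 (SE, adjusted p = 0.203 over all probes, limma), so it was not called. The brightest probe, which stands for the gene above, lies at chr14:70874370-70874429 and pairs with that same coding transcript.

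**Figure D3:**
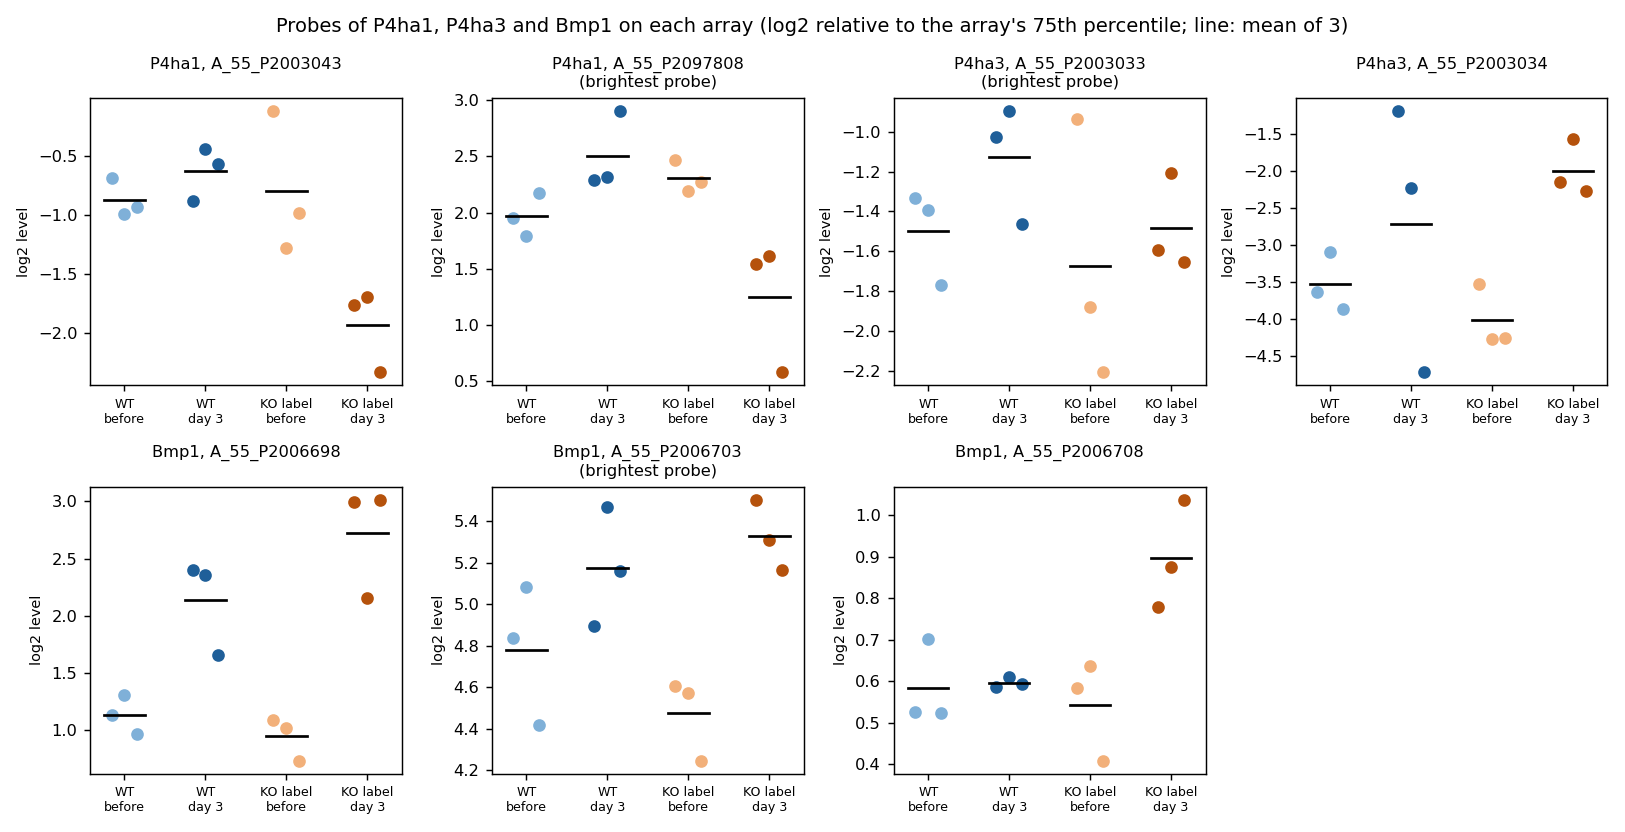
Log2 level relative to the 75th percentile of the array (y axis, scaled for each probe) of the 2 probes of P4ha1, the 2 of P4ha3 and the 3 of Bmp1, by group (x axis). Points are arrays and lines are means of 3 arrays. Both P4ha1 probes are lowest in the smSocs3-KO arrays at day 3, and the 3 Bmp1 probes have WT responses of 1.003, 0.39 and 0.01.

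Pcolce, which binds the C-propeptide and speeds up its removal by Bmp1, was at 6.90, 6.77 and 6.97 in WT before challenge and 7.56, 7.58 and 7.48 at day 3. Under the smSocs3-KO label it was at 7.14, 7.09 and 6.90 before challenge and 7.61, 7.71 and 7.31 at day 3. All 6 arrays at day 3 were higher than all 6 before challenge. Pcolce responded with a log2 fold change of 0.66 ± 0.15 (SE, 1.58-fold, adjusted p = 0.0392, limma) in WT, 0.50 ± 0.15 (adjusted p = 0.0933) under the smSocs3-KO label and 0.58 ± 0.11 (adjusted p = 0.0078) averaged over both.

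Before challenge, 0 of the 10 genes were called between the genotype labels by limma, where 0.0264% of all genes were called, and none had an unadjusted p under 0.05, as 4.4% of all genes did. The 10 log2 differences lay between -0.30, that of Bmp1, and 0.34, that of P4ha1. P4ha1 was the 1 gene without overlap, with 2.19 to 2.46 under the smSocs3-KO label against 1.79 to 2.17 in WT, where 6.48% of all genes were higher without overlap.

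At day 3, 0 of the 10 genes were called between the labels by limma, where 1.11% of all genes were, and 2 had an unadjusted p under 0.05, as did 16.2% of all genes. P4ha1, P4ha2 and Serpinh1 were lower under the smSocs3-KO label without overlap, where 12.7% of all genes were. P4ha1 differed by -1.26 ± 0.28 (SE, 95% confidence interval -1.87 to -0.65, adjusted p = 0.0589, limma). Serpinh1 differed by -0.86 ± 0.25 (SE, interval -1.40 to -0.32, adjusted p = 0.133, limma) and P4ha2 by -0.35 ± 0.19 (interval -0.77 to 0.07, adjusted p = 0.393). With the slide as a block these values became -1.03, -0.32 and 0.04, and the median of the 10 genes went from -0.35, with 7 of 10 negative, to -0.03, with 5 of 10 negative. The median over all genes was -0.08 without the block and -0.002 with it. Without the block, 40.4% of all genes had a positive difference.

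Markers of some cell types differed between these groups, and their part in the values above was not tested. The summed level of 8 smooth muscle markers, with Acta2 and Myh11 among them and all well above background on the 12 arrays, lay between 2674 and 2963 in WT before challenge, 2102 and 2640 in WT at day 3, 2369 and 3551 in smSocs3-KO before challenge and 1709 and 2024 in smSocs3-KO at day 3, in units of the 75th percentile. Of the 8, 2 were called lower in the averaged response. The summed level of 7 fibroblast markers, with Pdgfra and Dcn among them and all well above background on the 12 arrays, lay between 681 and 826, 631 and 762, 740 and 837, and 818 and 1289 in the same order of groups. Of the 7, 1 was called higher in the averaged response, and 2 were called higher under the smSocs3-KO label at day 3. Of 8 macrophage or monocyte markers, 6 were called higher in the averaged response, while their summed level ranged from 193 to 239, 163 to 280, 142 to 333 and 172 to 217. The summed level of 5 mesothelial markers, of which Msln, Upk3b, Krt19 and Wt1 were well above background on all 12 arrays and Upk1b on 10, was higher in each array labelled smSocs3-KO than in any WT array. It lay between 3.93 and 23.0, 2.70 and 13.8, 28.6 and 63.7, and 30.5 and 42.7, with a median log2 difference between the labels of 2.12 before challenge and 2.62 at day 3, and 0 of the 5 were called by limma. Of 6 endothelial markers 0 were called in the averaged response or between the labels by limma, and of 5 tested neutrophil markers 1 was called higher in the averaged response. The endothelial sum lay between 51.8 and 54.1, 63.9 and 72.6, 44.1 and 55.0, and 47.2 and 63.5 in the same order of groups. The neutrophil sum lay between 299 and 388, 220 and 385, 189 and 415, and 196 and 232. Of 5 tested lymphocyte markers, 1 was called lower in the averaged response. Of 4 tested adipocyte and 3 tested skeletal muscle markers, 0 were called in it.

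Among themselves the 10 genes formed 45 pairs, with a median Pearson r of 0.55 over the 12 arrays, which share the challenge and the slides. The pairs above 0.8 were 6 in number, led by Plod1 with Plod3 at 0.89 and Plod2 with Fkbp10 at 0.87. The pairs below 0 were 5, and each of them held P4ha1, down to -0.34 with Bmp1. Within the groups, after the mean of each group was taken off, the median was 0.17, and the highest pair was Plod2 with Serpinh1 at 0.83. Without replicate 4 of WT at day 3 that pair was at 0.78, and the highest was P4ha1 with Pcolce at 0.88. These correlations describe 12 arrays and were not tested.

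The genes most like Plod3 over the 12 arrays were Timm22 at an r of 0.988 and Lgals3 and Cpsf3l at 0.984. Those most like Fkbp10 were Shc1 and Haus3 at 0.984 and Tmem48 at 0.978. Those most like Plod1 were Cul4b at 0.981, Mfsd1 at 0.976 and a transcript with no gene name on the array at 0.976. None of the 9 was among the 10 genes.

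Other genes of the pathway were described from fixed lists, where 13.6% of all genes were called higher in the averaged response. Of 13 tested partners of collagen in the endoplasmic reticulum, 5 were called higher in the averaged response and none lower. They included P4hb, the protein disulfide isomerase that forms the beta subunit of prolyl 4-hydroxylase (0.82 ± 0.18, SE), Fkbp14, a peptidyl-prolyl isomerase (0.67 ± 0.16), Glt25d1, now named Colgalt1, a collagen galactosyltransferase (0.66 ± 0.20), and Ppib, the cyclophilin of the 3-hydroxylation complex (0.60 ± 0.12). P4hb had log2 levels of 4.03, 4.17 and 4.43 in WT before challenge and 5.55, 5.11 and 4.98 at day 3, and of 3.70, 4.73 and 4.53 and then 4.88, 4.91 and 5.08 under the smSocs3-KO label. It was higher at day 3 without overlap under both labels, with a log2 fold change of 0.999 ± 0.26 in WT (adjusted p = 0.0535, limma) and 0.64 ± 0.26 under the smSocs3-KO label (adjusted p = 0.176). The median response of the 13 partners was 0.64 in WT and 0.06 under the smSocs3-KO label. At day 3 all 13 had a negative difference between the labels, where 40.4% of all genes had a positive one. Their median was -0.45 against -0.08 over all genes, though 0 were called by limma. With the slide as a block, 11 of 13 were negative, and their median was -0.69 against -0.002 over all genes. That difference rests on replicate 1 of smSocs3-KO before challenge alone.

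Of 10 genes of procollagen export, 4 were called higher in the averaged response: Sec23a (0.84 ± 0.25, SE) and Sec13 (0.76 ± 0.23) of the COPII coat, Tfg (0.57 ± 0.17), which organises the sites of export, and Sar1b (0.50 ± 0.16), the GTPase that starts the coat. Of 6 relatives of the procollagen N- and C-proteinases, 1 was called higher, Adamts3, an N-proteinase. It was not well above background on any array before challenge, and was so on 1 of 3 in WT and 3 of 3 under the smSocs3-KO label at day 3. Adamts3 passed the filter on dim probes only through that last group, where it was high, so its call is no test of a response. It was at least 1.27-fold higher at day 3 under the smSocs3-KO label (1.102 to 1.59 when single arrays of these groups were left out), and in WT no fold is bounded. Of 9 fibrillar collagen chains, 5 were called higher, among them Col5a1 (0.76 ± 0.14, SE), Col3a1 (0.61 ± 0.13) and Col5a2 (0.58 ± 0.18). Col11a1 was not well above background before challenge and was so on 2 of 3 WT arrays and 3 of 3 smSocs3-KO arrays at day 3, at least 2.92-fold higher in WT and at least 3.03-fold higher under the smSocs3-KO label. Col11a1, too, passed the filter only through the smSocs3-KO arrays at day 3, so its call among the 5 is no test of a response either. When single arrays were left out, the WT bound was 1.68 without replicate 1 of day 3 and 6.61 without replicate 4 of day 3. These bounds set the mean over all 3 arrays at day 3 against the lowest signal well above background on each array before challenge.

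Lysyl oxidases crosslink the fibrils after secretion, a later step than that of the Plod enzymes. Of 5, 3 were called higher in the averaged response: Loxl4 (1.70 ± 0.32, SE), Lox (1.47 ± 0.24) and Loxl2 (1.28 ± 0.16). Lox was at 1.59, 1.73 and 1.91 in WT before challenge and 3.64, 3.51 and 2.55 at day 3, and at 1.34, 1.92 and 1.53 and then 2.84, 2.59 and 3.69 under the smSocs3-KO label, so that all 6 arrays at day 3 were above all 6 before challenge. The median of the 5 was 1.36 in WT and 1.21 under the smSocs3-KO label. The median of the 10 modifying enzymes and chaperones was 0.70 and 0.39. Differences between lists were not tested.

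**Figure D4:**
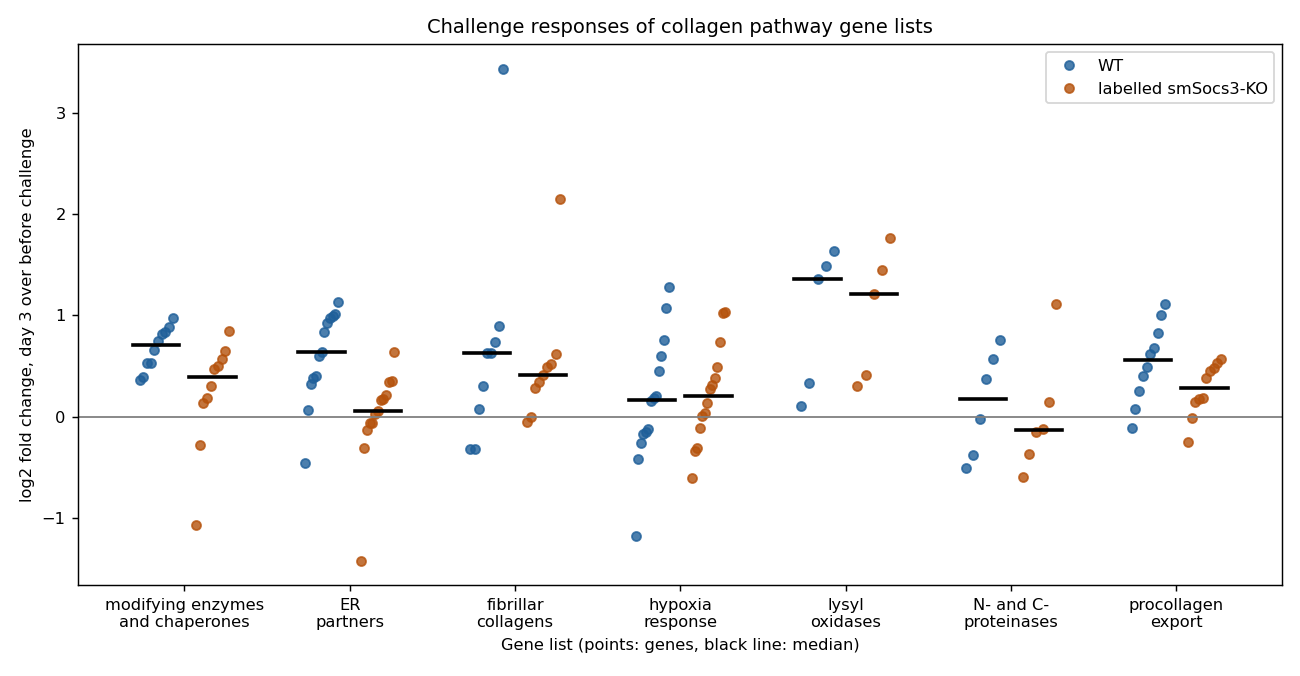
Log2 fold change of day 3 over before challenge (y axis) of each tested gene in 7 gene lists (x axis), in WT (blue) and under the smSocs3-KO label (brown). Black lines are medians. The 10 modifying enzymes and chaperones have medians of 0.70 and 0.39, the 13 partners in the endoplasmic reticulum 0.64 and 0.06, and the 5 lysyl oxidases 1.36 and 1.21.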

How the data were processed

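Aortic RNA was measured on 12 one-colour arrays, grouped by genotype label and challenge from the sample labels. The authors deposited the scanner output, whose processed signal is a linear intensity for every spot, with the background subtracted. The file headers name Feature Extraction 10.7.1.1 and the submitters' processing notes name 9.5.1.1. They also deposited a table of intensity values of the same arrays, with a median of 30.2 in every column, which is quantile normalized. From the scanner files, outlier spots and controls were left out, log2 of the processed signal was averaged per probe, and the 75th percentile of each array was subtracted. A spot was well above background where its signal exceeded the background by 13 SDs. A probe was kept if some group had it well above background on each of its 3 arrays (32280 of 55681), and the brightest stood for its gene (22758 genes).

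A model of 4 group means was fitted across all genes with limma 3.58.1 in R 4.3.3, with Benjamini-Hochberg adjustment at 0.05. In data simulated for the WT challenge response over 22758 genes, it called 22 of 100 genes changed by 1 on the log2 scale, 89 of 100 changed by 2, and 6 unchanged genes. The members and the gene lists were chosen with earlier results of these data known. The 10 members were all named. In each other list up to 4 genes called in the averaged response were named, and for the 3 members with the largest averaged response, the 3 genes with the highest correlation. Genes carry the names of the array's design, and probe positions are on mm9. Alternatives covered background correction, normalization, the deposited table, filters on dim probes, several probes of a gene, variance moderation, array weights, slide, replicate number, the arrays in the fit and the omission of each array. The number of arrays limits the precision. The arrays of the study's other datasets were not used here.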

Additional observations from a re-analysis of the deposited data

Results flagged for a closer look

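P4ha1 moved in opposite directions under both genotype labels: each WT array at day 3 was above the mean of WT before challenge, and each array labelled smSocs3-KO at day 3 was below the mean of its group before challenge. The difference of the responses was -1.60 on the log2 scale. It was tested as the genotype by challenge interaction, where the unadjusted p was 0.0019 and the adjusted p 0.704 (limma), and it did not pass the threshold. The value ran from -1.78 to -0.92 over 23 alternatives, with adjusted p-values from 0.0800 to 0.9999. Of the 10 genes, P4ha1 was the 1 for which all 3 arrays of each label moved this way. Only these 10 genes were searched for the pattern, so the share of all genes that have it is not known. The interaction was read from the same arrays by which P4ha1 was flagged. Part of the contrast rests on replicate 5 of smSocs3-KO at day 3, the lowest of the 12 arrays at 0.58, without which the difference was -1.27.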

How the results depend on the processing

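The number of the 10 genes called in the averaged response was 5. It was 1 with replicate number as a block and 9 with array weights, and between 5 and 6 when single arrays were left out. Over all 22758 genes, 3089 were called higher and 2088 lower in the fit above. The replicate block gave 592 and 304, and array weights gave 5354 and 4629. In WT, where 3 were called, the count was 0 with quantile normalization, with the deposited table and with no filter on dim probes. It was 0 too with the replicate block and with only the groups compared. It was 7 with array weights and 0 to 6 when single arrays were left out. Of all genes, 816 were called higher in WT in the fit above. There were 437 with quantile normalization and with the deposited table, and 5 with no filter. The replicate block and only the groups compared gave 0, and array weights gave 4774. Under the smSocs3-KO label, where 0 were called, the count was 1 with normexp background correction and with normexp and quantile normalization. It was 1 with the mean over the kept probes, 3 with trend and robust moderation and 6 with array weights. It was 0 to 3 when single arrays were left out. Over all genes, 390 were called higher and 167 lower in the fit above. Normexp gave 603 and 229, normexp and quantile normalization 525 and 210, and the mean over the kept probes 378 and 194. Trend and robust moderation gave 620 and 198, and array weights gave 1979 and 1612. Before challenge it was 3 with array weights, where 2940 of all genes were called higher and 4713 lower, and 0 otherwise. At day 3 between the labels it was 1, P4ha1, with normexp and quantile normalization, with the mean over probes and with trend and robust moderation. In that order, 59, 44 and 54 of all genes were called lower, against 35 in the fit above. For the interaction, the count of the 10 genes was 0 throughout. The cause was not tested. Replicate numbers did not pair the samples: over 11 pairs of same-numbered arrays, the correlation of deviations ran from -0.40 to 0.46, and 4 were above 0.1.

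Of 852 values of single genes under alternatives, 848 kept their direction. The response of P4ha2 under the smSocs3-KO label was -0.0008 with quantile normalization and -0.0006 with the deposited table, that of P4ha3 was -0.0769 without replicate 4 of smSocs3-KO before challenge, within a range of -0.0769 to 0.5577 when single arrays were left out, and the day 3 difference of P4ha2 was 0.0434 once the slide was a block. The P4ha3 response under that label, 0.19, was 1.105 with the mean over its probes and 0.70 with array weights. Without 1 array, the averaged P4ha1 value of -0.27 was -0.10 (without smSocs3-KO day 3 replicate 5), the P4ha3 value in WT of 0.37 was 0.23 (without WT before challenge replicate 3), the day 3 difference of P4ha2 was -0.23 (without smSocs3-KO day 3 replicate 2), and the P4ha2 response under the smSocs3-KO label lay between 0.05 and 0.26. With quantile normalization, the WT values of P4ha2, Serpinh1, Pcolce and Fkbp10 were 0.32, 0.42, 0.43 and 0.64. The bounds of Col11a1 and Adamts3 without single arrays were chosen after seeing the data. Bmp1 lost its averaged call (0.45 to 0.46) with quantile normalization, with normexp and quantile normalization and with the deposited table. The P4ha1 response under the smSocs3-KO label passed the threshold in 4 of 24 alternatives, with adjusted p-values from 0.0136 to 0.0493 (limma), and was -0.54 with the replicate block, where its day 3 difference was -0.74. The dimmest Plod1 probe, well above background on 0 of the 12 arrays, is limited by signal over background. To a lesser degree so is the dimmer P4ha3 probe, which was well above it on 11, while the brighter P4ha3 probe was on all 12.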

Other observations

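Of 14 tested genes of the hypoxia response, 3 were called higher in the averaged challenge response and none lower (limma). This was near the share over all genes, of which 13.6% were called higher. The 3 were Pgk1, a glycolytic kinase (1.16 ± 0.19 on the log2 scale, SE), Ldha, lactate dehydrogenase A (1.05 ± 0.17), and Vegfa, an angiogenic growth factor (0.75 ± 0.22). Pgk1 changed by 1.28 ± 0.26 in WT and 1.04 ± 0.26 under the smSocs3-KO label, and Ldha by 1.07 ± 0.24 and 1.03 ± 0.24. The median of the 14 genes was 0.17 in WT and 0.21 under the smSocs3-KO label, against -0.02 and -0.06 over all genes. Averaged over both labels the median was 0.08, and -0.0075 with the slide as a block. At day 3 between the labels, 0 of the 14 were called by limma, and the difference was 0.05 ± 0.26 for Pgk1 and 0.14 ± 0.24 for Ldha.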
